A study of Mus musculus with 14 samples.

Results

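The DEAD-box and DEAH-box RNA helicase genes are described here in mouse 2-cell embryos that were deprived of lactate, given lactyl-CoA or made to express a mutant histone H3. Members were the genes of the count table whose symbol is Ddx or Dhx followed by a number and at most 1 letter, without the Y-linked Ddx3y, which gave 52 of 56923 genes, 36 of them Ddx and 16 Dhx genes. RNA was sequenced from 14 libraries in 7 groups of 2, each library made from 5 embryos of ICR mice. Early 2-cell embryos were collected at 30 h and late 2-cell embryos at 54 h after hCG, the hormone injection that triggers ovulation.

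Early and late G&N embryos were kept from 24 h post-hCG in the embryo medium mKSOM with 10 mM lactate, 5 μM Gne140 and 50 μM NMN. Gne140 inhibits the lactate dehydrogenases LDHA and LDHB, and nicotinamide mononucleotide (NMN) is a precursor that restores NAD+. Early and late G&N-L embryos had the same inhibitor and NMN but no lactate in the medium, so that Gne140 and NMN were shared by both arms. Late G&N-L + Lac-CoA embryos were cultured like G&N-L after an injection of 1 mM Lac-CoA, the donor of the lactyl group in histone lactylation. By the study's account, late WT and late H3K18R embryos were injected as zygotes at 14 h post-hCG with mRNA for histone H3 variants. These were H3.1, H3.3 and H3.2 together, wild type or with lysine 18 changed to arginine. The culture medium of the latter groups is not given in the sources used here, so they were compared with each other only. The titles of the early libraries mark the absence of lactate in G&N-L, but their treatment field does not, and it lists no NMN for early G&N. In addition, the count columns of the mutant carry another name for the substitution than the sample titles.

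RNA helicases of these families use ATP to pull apart short RNA duplexes or to strip proteins from RNA. DEAD-box proteins act locally and mostly without moving along the strand, while DEAH-box proteins translocate, several of them at defined steps of pre-mRNA splicing. Through them the same fold serves transcription, splicing, mRNA export, ribosome assembly, translation, mRNA decay, germ-cell RNA storage and the sensing of viral RNA. In the mouse, major zygotic genome activation takes place in the late 2-cell embryo, when maternal transcripts are being cleared and the embryo makes its own mRNA and starts to build ribosomes.

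Library totals ran from 20350427 to 61275465 counts, so that 3 counts, the limit that a count of 0 allows, corresponded to 0.0589 to 0.144 CPM (counts scaled to a TMM-normalized library size of 1e+06). Such limits cover counting error only. The 20 late 2-cell genes found of a list of 22 summed to 322 to 554 CPM in the early and 3150 to 5729 CPM in the late libraries, with ranges that did not overlap, as the stage labels say. The 15 cumulus cell genes summed to 9.48 to 40.9 CPM, and 6 to 11 of them were at 0 in both libraries of a group. The 20 oocyte maternal genes summed to 37227 to 49376 CPM in the early libraries and to 7743 to 35050 CPM in the late ones. H3c1, an H3.1 gene, was at 2091 and 3654 CPM in the libraries labelled H3K18R and at 0.174 and 0.0925 CPM in those labelled WT. The wild-type mRNA was thus not seen at this gene. Nothing in the labels says that the libraries of a group came from separate cultures, and p-values therefore measure the spread between libraries, which may be technical. In libraries of pooled embryos, fewer embryos expressing a gene and less RNA per embryo cannot be told apart.

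The upstream sequences of 4 members are shown because their RNA carried the main patterns: Dhx8 and Ddx20 had the smallest p without lactate, Ddx43 had no counts before the late 2-cell stage, and Ddx58 went the other way from most members. Each is the part of the 250 bases before the start of the canonical GENCODE transcript that holds no exon of a protein-coding gene, 5′ to 3′ on the strand of the gene in the mm39 genome, and capitals mark matches to the motifs named afterwards. The windows of Dhx8 and Ddx43 also overlap exons of opposite-strand long noncoding RNA genes. That of Ddx20 lies within the annotated span of its own gene, which reaches chr3:105600755.
Dhx8, plus strand of chr11:101623526-101623727: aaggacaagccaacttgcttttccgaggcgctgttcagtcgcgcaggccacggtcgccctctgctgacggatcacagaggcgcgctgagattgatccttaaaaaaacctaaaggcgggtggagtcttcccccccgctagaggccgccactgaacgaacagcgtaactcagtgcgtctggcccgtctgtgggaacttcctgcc
Ddx20, minus strand of chr3:105595089-105595338: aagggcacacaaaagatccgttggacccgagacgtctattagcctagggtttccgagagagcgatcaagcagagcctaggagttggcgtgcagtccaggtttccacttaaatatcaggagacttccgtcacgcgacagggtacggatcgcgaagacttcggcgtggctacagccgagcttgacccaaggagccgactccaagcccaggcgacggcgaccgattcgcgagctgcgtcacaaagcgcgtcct
Ddx43, plus strand of chr9:78302808-78303055: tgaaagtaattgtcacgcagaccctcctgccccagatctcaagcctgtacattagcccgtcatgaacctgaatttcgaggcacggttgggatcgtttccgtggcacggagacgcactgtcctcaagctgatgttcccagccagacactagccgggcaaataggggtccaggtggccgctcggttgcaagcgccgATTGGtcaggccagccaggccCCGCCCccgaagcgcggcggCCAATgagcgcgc
Ddx58, minus strand of chr4:40239853-40240084: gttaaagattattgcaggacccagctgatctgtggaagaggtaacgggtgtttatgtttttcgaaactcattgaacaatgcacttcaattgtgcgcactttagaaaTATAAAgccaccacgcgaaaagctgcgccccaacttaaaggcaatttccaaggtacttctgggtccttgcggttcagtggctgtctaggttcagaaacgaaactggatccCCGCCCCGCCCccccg

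The motifs were searched on both strands in the 250 bases before the start of all 52 members and of 21770 protein-coding genes. A GC box (GGGCGG) was in 51.9% of the members' windows and in 36.3% of all, and a CCAAT box (CCAAT) in 34.6% and 36.5%. A TATA box (TATAAA) was in 5.77% of the members' windows, Ddx39a, Ddx4 and Ddx58, and in 11.9% of all. The E-box CACGTG was in 7.69% and 6.26%, the Nr5a motif AAGGTCA in 3.85% and 3.93%, the Yy1 motif AAGATGG in 3.85% and 4.11%, and the Obox core GGATTA in 7.69% and 7%. Of the sequences printed, those of Dhx8 and Ddx20 held none of the 7 motifs, that of Ddx43 held a GC box and matches to CCAAT on both strands, and that of Ddx58 a TATA box and overlapping GC boxes. The median GC content was 55.2% over the members and 53.2% over all windows. A match is a string of letters and not a measured binding site.

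All 52 members had more than 3 counts in at least 1 library. The gene level per length differed widely among them, and the order changed with the stage. In early G&N embryos the highest level was that of Ddx18, a nucleolar helicase, at 65.2 ± 21.3 CPM per kilobase of exon (SD, n = 2), followed by Ddx3x, a translation factor, at 47.1 ± 4.4. The next were Ddx5, Ddx4, Ddx19a and Ddx24, at 25.4 to 26.9, where the spread of Ddx4 (SD 3.01) and of Ddx19a (SD 7.03) exceeded the gaps, while Ddx5 (26.9 ± 0.035) and Ddx24 (25.4 ± 0.135) differed beyond theirs. In late G&N embryos Ddx3x led at 80.7 ± 31.3 CPM per kilobase, with Ddx18, Ddx52 and Ddx5 at 36.6 to 40.1. In late WT embryos Ddx52, which acts in small-subunit ribosome assembly, stood at 92.6 ± 16.6 and Ddx3x at 85 ± 3.07, within their spread. Summed over all members, the level was 2393 and 2346 CPM in late G&N, 1587 and 1455 CPM in late G&N-L, and 1848 and 2160 CPM in late G&N-L + Lac-CoA libraries. The sums were 3482 and 3755 CPM in late WT and 3289 and 2319 CPM in late H3K18R libraries, so that the H3K18R libraries differed from each other more than those of any other late group.

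**Figure D1:**
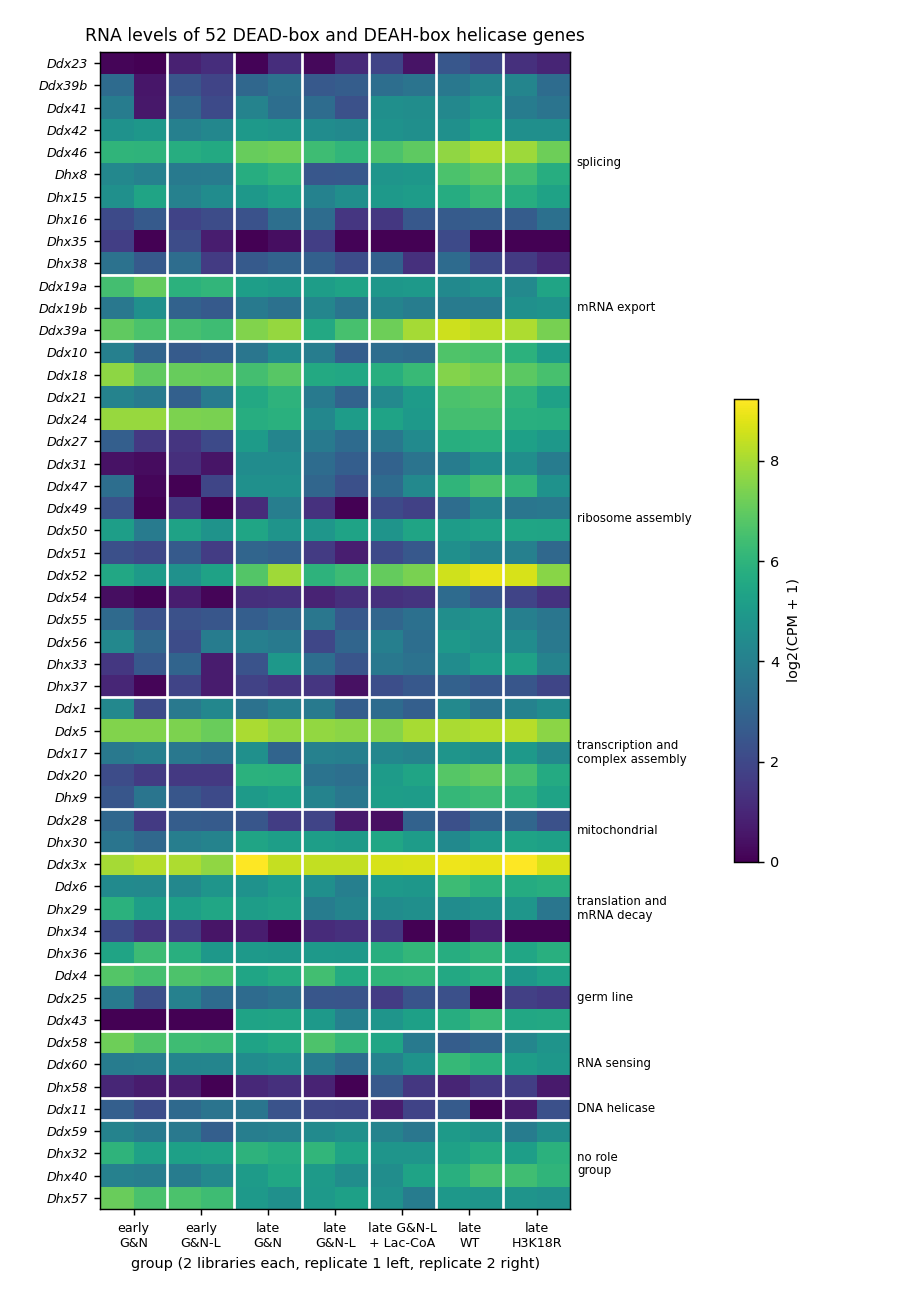
Levels of the 52 helicase genes, as log2(CPM + 1), in the 14 libraries, with genes in rows by role and the 2 libraries of each group side by side. Ddx43 is dark (0 counts) in all 4 early libraries and lit in all late ones, and Dhx8 is darkest in the 2 late G&N-L libraries.

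Late 2-cell embryos without lactate were compared with G&N embryos to ask which helicase RNAs depended on lactate at the time of major genome activation. Of the 51 members tested, 39 lay below G&N in late G&N-L and 12 above, with a median log2 fold change of -0.75, against -0.02 over the 19481 genes tested. In 29 members both G&N-L libraries were below both G&N libraries, which held for 24.9% of all genes, and in 4 they were above both, which held for 18.6%. No member passed an adjusted p of 0.05 in edgeR, where 0% of all genes did. At an unadjusted p under 0.05, 13 members were lower, against 7.65% of all genes, and 1 was higher, against 4.32%. By DESeq2, 8 members had a lower level at an adjusted p under 0.05 (3.19% of all genes), namely Dhx8, Ddx20, Ddx21, Ddx18, Ddx47, Ddx39a, Ddx46 and Ddx52, and Ddx58 a higher one (1.61%). Without late G&N-L replicate 2 the median was -0.43, against -0.14 over all genes. The difference was then -0.29, where the main fit had -0.73. The summed oocyte maternal genes moved with this contrast, at 33399 and 35050 CPM in G&N-L and 26084 and 31403 CPM in G&N, and their part in the result was not tested. The summed late 2-cell genes overlapped between the groups, at 3150 and 3841 CPM in G&N-L and 3455 and 3910 CPM in G&N.

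Dhx8 encodes a DEAH-box helicase that releases the spliced mRNA from the spliceosome. It was at 52.8 and 64 CPM in late G&N, and at 4.73 and 4.85 CPM in late G&N-L. The libraries of the 2 groups were far apart and those within each group close together. The log2 fold change was -3.55 (standard error 0.321), with an edgeR p of 5.6e-05, adjusted to 0.311. It was called by DESeq2 and by edgeR without the filter on low counts, with at least 10 counts in every library, and with all 14 libraries in the fit. Among the other splicing members, Ddx46, which acts in prespliceosome formation, was at 133 and 147 CPM in G&N and 81.2 and 66.6 CPM in G&N-L, which is a log2 change of -0.87 (edgeR adjusted p = 0.331). Of the 9 splicing members tested, 8 lay below G&N, with a median of -0.66, and 2 of them had an unadjusted p under 0.05.

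The ribosome assembly members were the largest group, and 14 of 16 lay below G&N with a median log2 fold change of -1.21. In 7 of them the unadjusted p was under 0.05, namely Ddx18, Ddx21, Ddx24, Ddx31, Ddx47, Ddx51 and Ddx52. Ddx21, a nucleolar helicase of ribosomal RNA transcription and processing, was at 46.5 and 61.2 CPM in G&N and at 12.8 and 6.58 CPM in G&N-L, which is a log2 change of -2.42 (standard error 0.44, edgeR adjusted p = 0.311). Ddx47, which acts in early processing of pre-ribosomal RNA, was at 23.5 and 23.9 CPM in G&N and at 7.2 and 3.76 CPM in G&N-L. Its log2 fold change was -2.06 (edgeR adjusted p = 0.324). Ddx18, with Ddx52 the most abundant of the group per kilobase, was at 87.5 and 114 CPM in G&N and at 48.2 and 45.1 CPM in G&N-L, with a change of -1.06 (edgeR adjusted p = 0.316). In all 3 genes the groups did not overlap, with G&N-L the lower. Ddx49, which had a fitted log2 change of -3.31 (edgeR adjusted p = 0.684), was at 1.18 and 14.6 CPM in G&N and at 1.48 and 0 CPM in G&N-L, so that this value rests on 1 library. Ddx50, the neighbour and closest relative of Ddx21 on chromosome 10, 13291 bases away, was at 41.6 and 26.6 CPM in G&N and at 27.9 and 40.1 CPM in G&N-L, with overlapping libraries.

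Ddx20, known as Gemin3, belongs to the SMN complex that loads Sm proteins onto spliceosomal RNAs. It was at 58.2 and 56.9 CPM in G&N and at 10.3 and 9.31 CPM in G&N-L. The log2 fold change was -2.50 (standard error 0.299), with an edgeR p of 2.4e-04, adjusted to 0.311. It was called by the same alternatives as Dhx8. Dhx9, a helicase that works with RNA polymerase II, was the other member of the transcription and complex assembly group with an unadjusted p under 0.05, at 31.4 and 36.6 CPM in G&N and 16.5 and 11.7 CPM in G&N-L. The abundant Ddx5, a transcription cofactor, was at 268 and 212 CPM in G&N and at 210 and 195 CPM in G&N-L, and its paralog Ddx17 at 24 and 6.77 CPM against 15.8 and 14.7 CPM. Neither separated the groups by an unadjusted p under 0.05.

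Ddx39a couples splicing to mRNA export. It was at 179 and 218 CPM in G&N and at 46.5 and 92.8 CPM in G&N-L, which is a log2 change of -1.46 (edgeR adjusted p = 0.324). Exons on the opposite strand from Adgre5 cover 33.4% of its exon bases, and whether the counting used strand is not given, but Adgre5 had 0 counts in all 14 libraries. Its paralog Ddx39b was at 7.42 and 10.1 CPM in G&N and at 5.02 and 5.66 CPM in G&N-L. How reads shared by paralogs were counted is not given, so the split between Ddx39a and Ddx39b is uncertain, as are those of Ddx19a and Ddx19b, Ddx5 and Ddx17, and Ddx21 and Ddx50. Dhx29, a helicase that helps ribosomes scan structured leaders, was at 34.2 and 38.2 CPM in G&N and at 13.7 and 17 CPM in G&N-L. Its log2 fold change was -1.20 (edgeR adjusted p = 0.332).

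Ddx58, which encodes the cytosolic RNA sensor RIG-I, was the member with an unadjusted p under 0.05 in the other direction. It was at 39.8 and 47.3 CPM in late G&N and at 99.1 and 70.2 CPM in late G&N-L, which is a log2 change of 1.01 (standard error 0.283, edgeR adjusted p = 0.332). The other members of the RNA sensing group lay on the other side, with Ddx60 at 21.7 and 24.7 CPM in G&N and 14.2 and 8.53 CPM in G&N-L, and Dhx58 at no more than 1.4 CPM in any of these libraries. The early levels of Ddx58, 147 and 103 CPM in G&N, were above those of all late libraries.

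**Figure D2:**
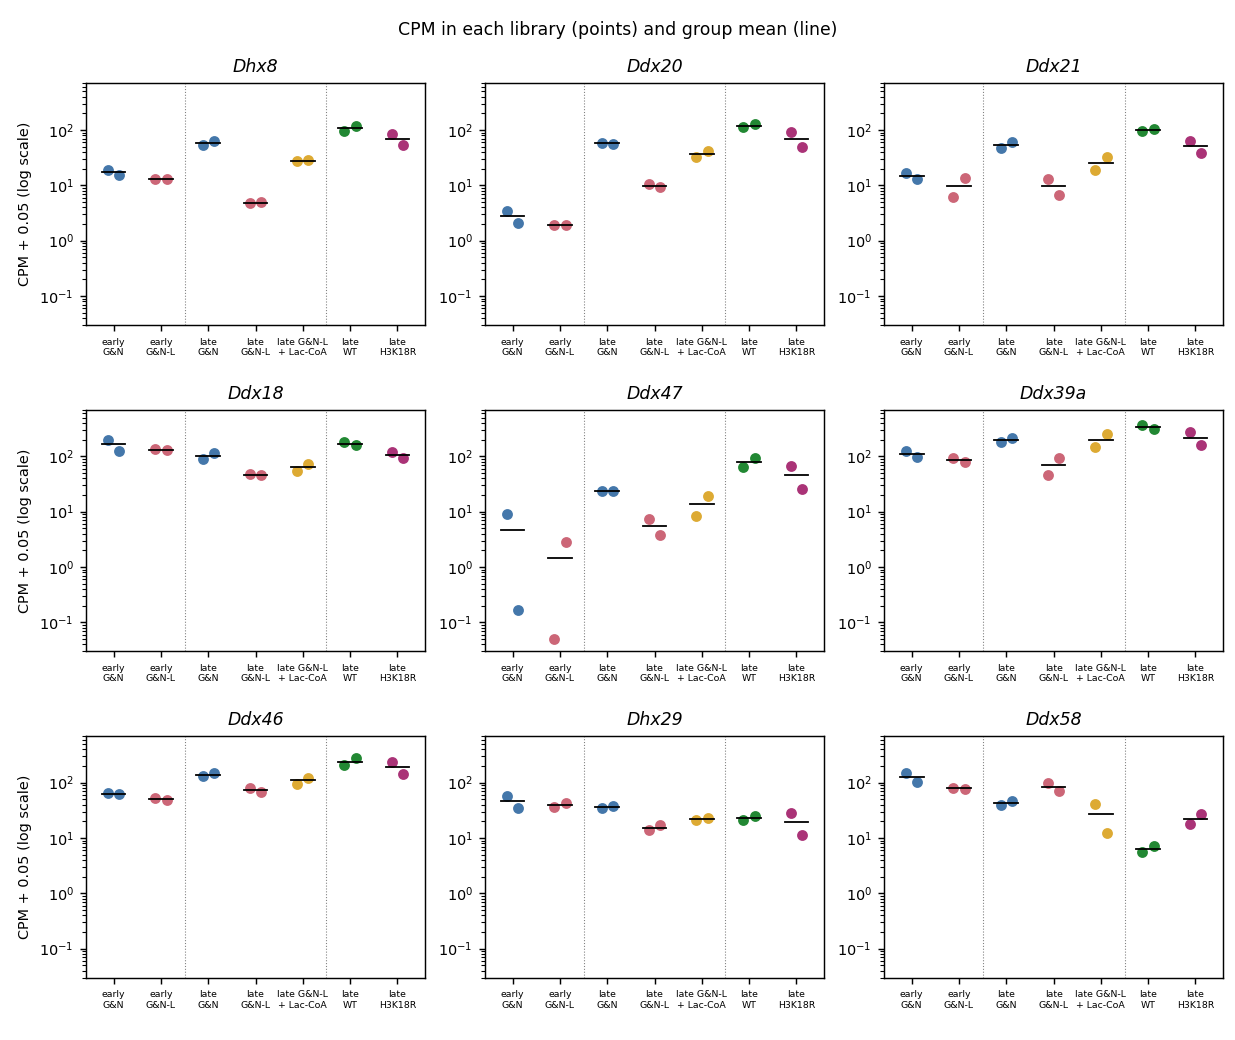
CPM (log axis, 0.05 added) of 8 members with the smallest p when late G&N-L was compared with G&N, together with Ddx58, in each library (points, left to right replicate 1 and 2) with the mean of each group (lines). Dhx8 lies at 4.73 and 4.85 CPM in late G&N-L and stands at 27 and 28.3 CPM with Lac-CoA, while Ddx58 is lowest in WT, at 5.61 and 7 CPM.

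Injected Lac-CoA was compared with G&N-L to ask whether helicase RNAs moved back when the lactyl donor was supplied. This comparison shares the late G&N-L libraries with the former and is not independent of it. No injection is described for the G&N-L or G&N embryos, so Lac-CoA and the injection itself cannot be told apart in either comparison. Of 51 members tested, 36 lay above G&N-L and 15 below, with a median log2 fold change of 0.41 against -0.01 over all 19610 genes. Without late G&N-L replicate 2 the median was 0.25, against 0.11 over all genes. The difference was then 0.14, where the main fit had 0.42. In 26 members both Lac-CoA libraries were above both G&N-L libraries (24.8% of all genes) and in 7 both were below (22%). No member passed the adjusted threshold in edgeR, and 0% of all genes did. At an unadjusted p under 0.05, 8 members were higher (6.92% of all genes) and 2 lower (6.38%). By DESeq2 Dhx8, Ddx20, Ddx52, Dhx36, Ddx39a and Ddx41 were higher at an adjusted p under 0.05 (3.5%) and Ddx58 was lower (2.69%).

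Dhx8 was at 27 and 28.3 CPM with Lac-CoA, which is a log2 change of 2.48 against G&N-L (standard error 0.388, edgeR adjusted p = 0.294). Ddx20 was at 32.7 and 41 CPM, a change of 1.86 (edgeR adjusted p = 0.294). Both lay between the G&N-L and the G&N libraries without overlap. Ddx39a, at 145 and 255 CPM, spanned the G&N values of 179 and 218 CPM. Ddx52 was at 130 and 164 CPM with Lac-CoA, 60.8 and 79.7 CPM in G&N-L and 106 and 240 CPM in G&N. Dhx9, at 34.5 and 33.3 CPM, lay within its G&N range of 31.4 to 36.6 CPM.

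Ddx41, a splicing helicase, was at 23.4 and 21.9 CPM with Lac-CoA, above G&N-L at 8.68 and 3.89 CPM and above G&N at 16.5 and 9.05 CPM. Dhx36, which unwinds G-quadruplexes, was at 54.3 and 68.8 CPM with Lac-CoA, 29.9 and 29 CPM in G&N-L and 31.1 and 28.4 CPM in G&N. The G&N-L and G&N libraries overlapped in this gene, and the Lac-CoA libraries stood above both groups. Dhx32 was at 27 and 27.3 CPM with Lac-CoA, below 66.8 and 39.7 CPM in G&N-L and 61.9 and 52 CPM in G&N. Ddx58 was at 41.7 and 12.5 CPM with Lac-CoA, which is a log2 change of -1.69 against G&N-L (edgeR adjusted p = 0.33), and the Lac-CoA libraries differed from each other more than those of either other group did. The summed oocyte maternal genes were lower in the Lac-CoA libraries, at 28856 and 22315 CPM, and the late 2-cell genes higher, at 5233 and 5729 CPM against 3150 and 3841 CPM in G&N-L. The part of either in the result was not tested.

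**Figure D3:**
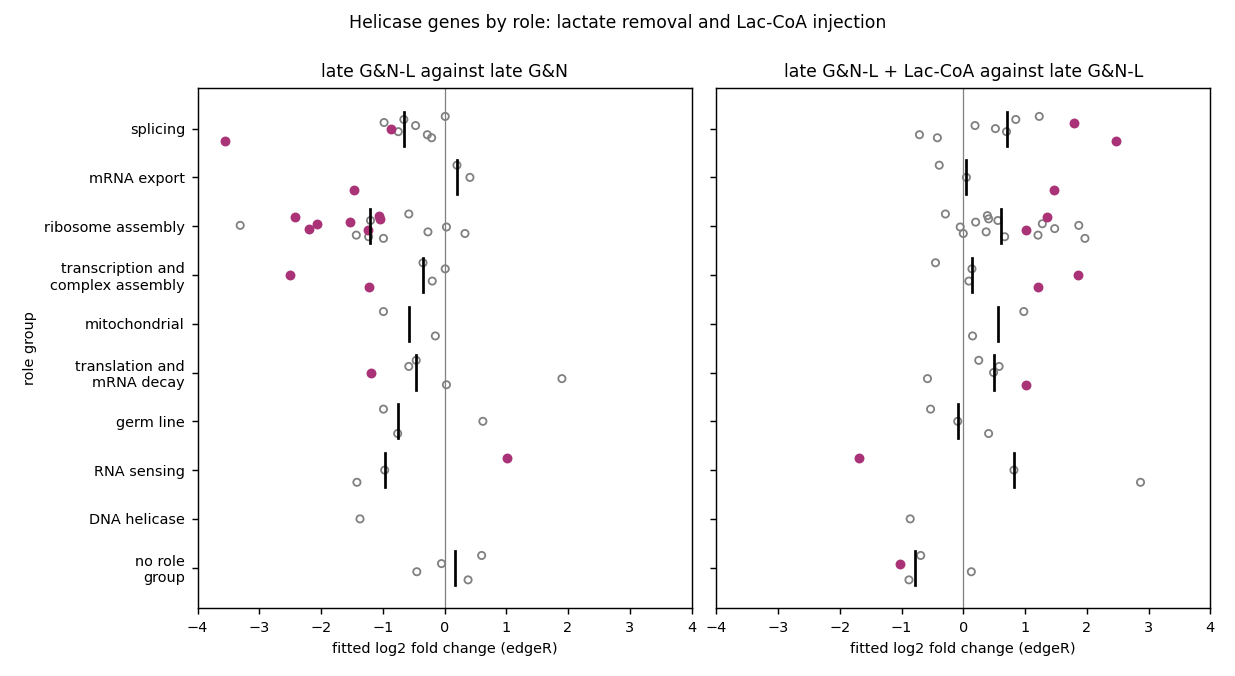
Fitted log2 fold change of each helicase gene (points) by role, for late G&N-L against G&N on the left and for Lac-CoA against G&N-L on the right. Filled points have an unadjusted p under 0.05 and black lines are group medians, for ribosome assembly -1.21 on the left and 0.61 on the right, where the late G&N-L libraries enter both.

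By role, the medians against G&N-L were 0.70 for the 9 splicing members, 7 of which lay above, and 0.61 for the 16 ribosome assembly members, 13 of which lay above. Those 2 groups, with 9 and 16 of the 51 members tested, held 4 of the 8 members with an unadjusted p under 0.05. Against late G&N embryos, the Lac-CoA libraries had 31 of 51 members below and 20 above, with a median of -0.13 against 0.01 over 19613 genes. This median moved to -0.29 without Lac-CoA replicate 2 and -0.20 without Lac-CoA replicate 1. It was -0.24 without late G&N replicate 2 and -0.26 with all 14 libraries in the fit. Over all genes the same fits gave, in this order, -0.11, -0.12, 0.11 and -0.04. No member passed the adjusted threshold in edgeR (0% of all genes). At an unadjusted p under 0.05, 4 were lower (4.1%) and 1 higher (4.41%). DESeq2 called Dhx36 (2.43% of all genes in either direction). Dhx8 was still 0.98 below G&N on the log2 scale (standard error 0.284, edgeR adjusted p = 0.5), and its Lac-CoA libraries lay below both G&N libraries. The late 2-cell genes were above G&N here too, at 5233 and 5729 CPM against 3455 and 3910 CPM, and their part in the result was not tested. Ddx31, at 6.53 and 10.7 CPM with Lac-CoA and 21.7 and 21.5 CPM in G&N, and Ddx21, at 19.1 and 32.4 CPM and 46.5 and 61.2 CPM, were also lower at an unadjusted p under 0.05, as was Dhx32. Ddx4, at 65.3 and 66.8 CPM with Lac-CoA and 42 and 49.9 CPM in G&N, lay on the other side. Ddx11 and Ddx25, at no more than 11 CPM in these 4 libraries, had changes of -2.13 and -1.43 with edgeR adjusted p = 0.701 and 0.691.

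Early 2-cell embryos were compared to ask whether lactate mattered 6 h after it was withdrawn, before major genome activation. Of 51 members tested, 34 lay below G&N in early G&N-L, with a median log2 fold change of -0.22 against -0.01 over 17343 genes. Without early G&N replicate 1 the median was 0.08, against 0.09 over all genes, so its direction rests on that library. No member passed the adjusted threshold in edgeR (0% of all genes) or in DESeq2 (0.219%). At an unadjusted p under 0.05, 1 member was lower (2.7% of all genes) and 0 were higher (1.82%). The lower member was Ddx19b, an mRNA export factor, at 11.9 and 23.8 CPM in G&N and 6.42 and 5.12 CPM in G&N-L. Its fold change was -1.55 on the log2 scale (edgeR adjusted p = 1). Its paralog Ddx19a, 5337 bases away on chromosome 8, was at 88.8 and 130 CPM in G&N and 60.6 and 67.2 CPM in G&N-L.

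Of the 13 members that were lower without lactate in late embryos at an unadjusted p under 0.05, 11 also lay below G&N at the early stage, none with an unadjusted p under 0.05. Of all 51 members tested at the early stage, 34 lay below G&N, as did 8755 of 17343 genes. The share among all genes chosen by the same rule was not computed. Ddx24 was at 223 and 222 CPM in early G&N and 168 and 163 CPM in early G&N-L, Ddx46 at 64.1 and 63 CPM against 52.6 and 48.2 CPM, and Ddx39a at 126 and 97.5 CPM against 92.5 and 80.4 CPM. In these 3 genes the groups did not overlap. At the early stage both G&N-L libraries were below both G&N libraries in 15 of 51 members (21.3% of all genes). They were above both in 5 members (11.4%). Dhx8 was at 18.6 and 15.5 CPM in early G&N and at 12.7 and 13.2 CPM in early G&N-L. Ddx20 was at 3.37 and 2.07 CPM in early G&N and 1.86 and 1.9 CPM in early G&N-L. Ddx18 was at 201 and 126 CPM in early G&N and at 135 and 130 CPM in early G&N-L. Ddx18 thus overlapped between the groups, while Dhx8 and Ddx20 did not overlap. Ddx58 lay at 80.3 and 77.8 CPM in early G&N-L, below its early G&N levels, which is the side opposite to the late comparison. Dhx30, a mitochondrial ribosome assembly factor, was at 10.9 and 7.76 CPM in early G&N and 14.4 and 16.7 CPM in early G&N-L. Of the other members with the smallest p, Ddx42 was at 25.1 and 28.9 CPM against 15.3 and 18.3 CPM and Dhx15 at 24.1 and 41.2 CPM against 15.6 and 21.3 CPM, while Ddx11 and Ddx23 did not exceed 10.7 CPM. All had an edgeR adjusted p of 1. Over the late and early comparisons, which share no library, 28 of 50 members had the same sign (56%, against 51.5% of all genes). Across members Pearson's r was 0.06 and Spearman's rho -0.01, and over all genes r was 0.04. Most members lay below G&N in each comparison, which by itself raises the share of same signs.

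The change from the early to the late stage gives each member's own course. With lactate, 7 of 51 members were higher in late than in early G&N at an adjusted p under 0.05 (8.18% of all genes) and 5 were lower (5.47%). The median log2 fold change was 0.48, against 0.08 over 19443 genes. These counts depend on scaling, with 11 higher and 2 lower when library totals were used without TMM, where the median of all genes moved to 0.46 and that of the members to 0.87, a difference of 0.41 against 0.40 in the main scaling. This difference was 0.14 without early G&N replicate 2 and 0.66 with at least 10 counts in every library. The calls also rest on few libraries, with 1 member called without late G&N replicate 1, 2 without late G&N replicate 2 and 7 without early G&N replicate 2. Without early G&N replicate 1 the median was 0.96, against 0.62 over all genes.

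Ddx43, a germ-line helicase, had 0 counts in all 4 early libraries. In late G&N embryos it was at 39.9 and 41.1 CPM, at least 637-fold above the limit of 3 counts per early G&N library (0.0636 CPM on average). In late G&N-L it was at 30.9 and 15.2 CPM, at least 218-fold above the limit in early G&N-L (0.106 CPM on average). All late libraries held it, from 15.2 CPM to 73.5 CPM in WT. Exons of the opposite-strand gene 4930542C12Rik cover 7.14% of the exon bases of Ddx43. Ddx20 rose from 3.37 and 2.07 CPM to 58.2 and 56.9 CPM in G&N, which is a log2 change of 4.35 (edgeR adjusted p = 0.00719). Ddx31, a nucleolar helicase, rose from 0.373 and 0.228 CPM to 21.7 and 21.5 CPM, a change of 6.10 (edgeR adjusted p = 0.00835). Dhx8 rose by 1.71 (edgeR adjusted p = 0.0311), Ddx21 by 1.81 (adjusted p = 0.032), Dhx30 by 1.98 (adjusted p = 0.0325) and Ddx52 by 2.10 (adjusted p = 0.0403) on the log2 scale.

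The members that fell had their highest levels in early G&N embryos. Ddx24, a nucleolar helicase, fell from 223 and 222 CPM in early G&N to 52.6 and 57.3 CPM in late G&N, which is a log2 change of -2.09 (edgeR adjusted p = 0.0116). Dhx57 fell from 139 and 95 CPM to 30.2 and 23.6 CPM, a change of -2.17 (edgeR adjusted p = 0.0162). The mRNA export factor Ddx19a fell from 88.8 and 130 CPM to 34.9 and 31.9 CPM (edgeR adjusted p = 0.0347). Ddx58 (-1.58, edgeR adjusted p = 0.0261) and Ddx4 (-1.16, adjusted p = 0.0498), the germ-cell helicase Vasa, completed the group. The summed oocyte maternal genes were lower in the late G&N than in the early G&N libraries too, as given above.

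Without lactate, the late libraries had 1 of 52 members higher than the early ones at an adjusted p under 0.05 (5.97% of all genes) and 4 lower (5.87%), with a median of 0.03 against 0.15 over 18604 genes. With library totals in place of TMM the split was 5 higher and 3 lower, the median of all genes 0.51 and that of the members 0.41. The median of the members was 0.12 below that of all genes in the main scaling and 0.10 below with library totals, but 0.14 above with at least 10 counts in every library and 0.20 above without late G&N-L replicate 2. The higher member was Ddx43. Ddx18 went from 135 and 130 CPM in early to 48.2 and 45.1 CPM in late G&N-L, and Ddx24 from 168 and 163 CPM to 18.1 and 33.2 CPM. Dhx57 went from 97.5 and 82.3 CPM to 30.9 and 37.2 CPM and Dhx29 from 36.4 and 42.7 CPM to 13.7 and 17 CPM. The log2 changes of these 4 lower members were -1.56, -2.75, -1.46 and -1.44, with edgeR adjusted p-values of 0.0126 to 0.0429. Of these, Ddx24 was still called without any of the 4 libraries in turn. The number of calls was 3 without early G&N-L replicate 1, 1 without late G&N-L replicate 1 and 2 without late G&N-L replicate 2. The median was 0.46 without early G&N-L replicate 1 and 0.35 without late G&N-L replicate 2. Over all genes it was 0.54 and 0.15.

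**Figure D4:**
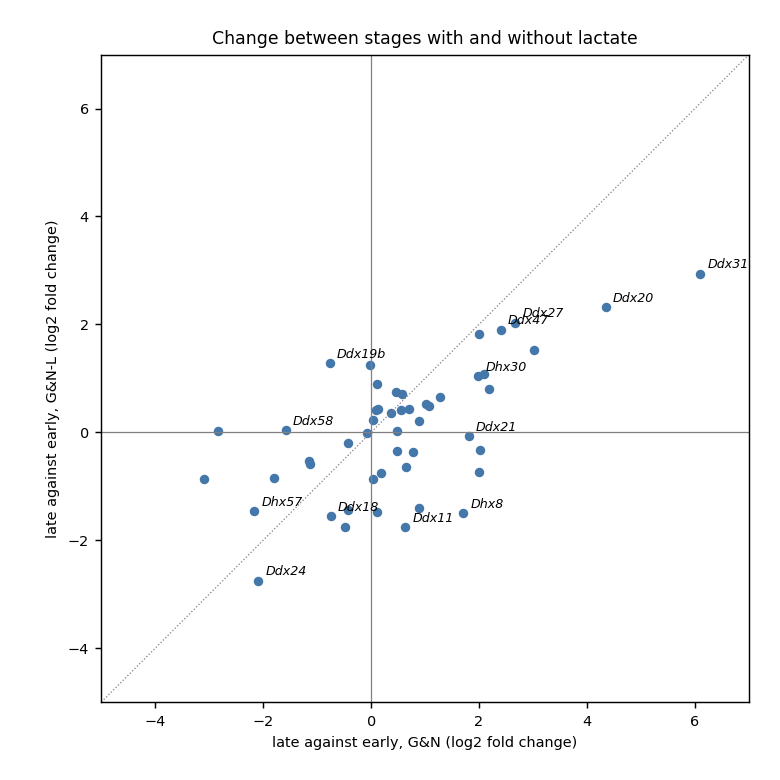
Log2 fold change from early to late 2-cell embryos with lactate (G&N, x axis) and without (G&N-L, y axis) for 50 members, Ddx43 left out because it had 0 counts in the early libraries, with the dotted line marking equal change. Dhx8 lies at 1.71 and -1.50, and Ddx20 and Ddx31 lie below the line.

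The stage changes with and without lactate come from separate libraries. Their signs were the same in 35 of 51 members (68.6%), against 78.1% over 17126 genes. Dhx8 went from 12.7 and 13.2 CPM to 4.73 and 4.85 CPM without lactate, which is a log2 change of -1.50 (edgeR adjusted p = 0.0858), while it rose with lactate. Ddx20 was 2.32 higher on the log2 scale in late than in early G&N-L (edgeR adjusted p = 0.0664), Ddx31 2.94 higher (adjusted p = 0.0821) and Dhx9 1.82 higher (adjusted p = 0.075). Ddx21 (-0.07) and Ddx58 (0.04) had changes near 0 between the stages without lactate.

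The difference between the stage changes was tested as an interaction over 8 libraries. The members had a median interaction of -0.68 against 0.06 over 22287 genes, and 35 of 52 were below 0. With single libraries left out the median ranged from -0.99 to -0.27, the latter without early G&N-L replicate 1. It was -0.45 without late G&N-L replicate 2. In these fits the median of all genes was -0.17, 0.27 and -0.09. The last fit thus had a difference of -0.36, against -0.74 in the main fit. No member passed the adjusted threshold in edgeR (0% of all genes), 8 were lower (3.98%) and 2 higher (3.57%) at an unadjusted p under 0.05, and DESeq2 called 3 (1.07%), Dhx8, Ddx20 and Ddx58. The interaction of Dhx8 was -3.26 (standard error 0.465), with an edgeR p of 9.7e-05, adjusted to 0.494, and that of Ddx20 was -2.08 (adjusted p = 0.595). Those of Ddx31 (-3.19), Ddx11 (-2.45), Ddx21 (-1.94) and Ddx39a (-1.19) were on the same side, and those of Ddx19b (2.01) and Ddx58 (1.57) on the other.

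Late H3K18R embryos were compared with WT embryos to ask which helicase RNAs differed where the injected H3 carried arginine in place of lysine 18. H3c1 was at 2091 and 3654 CPM in the H3K18R and at 0.174 and 0.0925 CPM in the WT libraries. The substitution and the amount of H3 mRNA therefore cannot be told apart in these counts, which are of 1 H3 gene. By immunofluorescence, the study found that H3 was loaded normally on nuclei after either injection. Of 50 members tested, 37 lay below WT and 13 above, with a median log2 fold change of -0.39 against 0.03 over 17704 genes. In 24 members both H3K18R libraries were below both WT libraries (19.5% of all genes), and in 4 both were above (19.5%). No member passed the adjusted threshold in edgeR (0.00565% of all genes did) or in DESeq2 (0.678%). At an unadjusted p under 0.05, 3 members were lower (2.67%) and 1 higher (3.77%). The libraries of the mutant were unlike. Leaving out H3K18R replicate 1 gave a median of -0.72, replicate 2 one of -0.31 and WT replicate 1 one of -0.50. Over all genes these fits gave -0.06, -0.10 and 0.17. The difference was -0.21 without H3K18R replicate 2, where the main fit had -0.42. The summed oocyte maternal genes moved with this contrast, at 8545 CPM in H3K18R replicate 1 and 17933 CPM in replicate 2. They were at 7743 and 7814 CPM in WT, and their part was not tested. The summed late 2-cell genes overlapped between the groups, at 3834 and 3182 CPM in H3K18R and 3467 and 3255 CPM in WT.

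Ddx58 was the higher member, at 18 and 26.6 CPM in H3K18R and at 5.61 and 7 CPM in WT, which is a log2 change of 1.82 (standard error 0.487, edgeR adjusted p = 0.734). The 3 lower members were Ddx60, Ddx10 and Ddx21. Ddx60 was at 34.1 and 28.9 CPM in H3K18R and 71 and 57.2 CPM in WT. Ddx10, a helicase of small-subunit ribosome assembly, was at 60.3 and 33.4 CPM against 101 and 95.5 CPM, and Ddx21 at 63.1 and 37.8 CPM against 97.4 and 104 CPM. In each of these the libraries did not overlap. Dhx8 was at 86.2 and 53.2 CPM in H3K18R and 96.2 and 120 CPM in WT, and Ddx20 at 90.4 and 48.8 CPM against 111 and 127 CPM. Ddx18 was at 118 and 93.3 CPM against 181 and 157 CPM, Ddx24 at 55.5 and 54.4 CPM against 88.7 and 88.5 CPM and Ddx27 at 37 and 29.6 CPM against 54.6 and 57 CPM, all with an edgeR adjusted p of 0.782 or more. Ddx19b, at 24.1 and 26 CPM against 13.3 and 13.3 CPM, lay above WT.

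**Figure D5:**
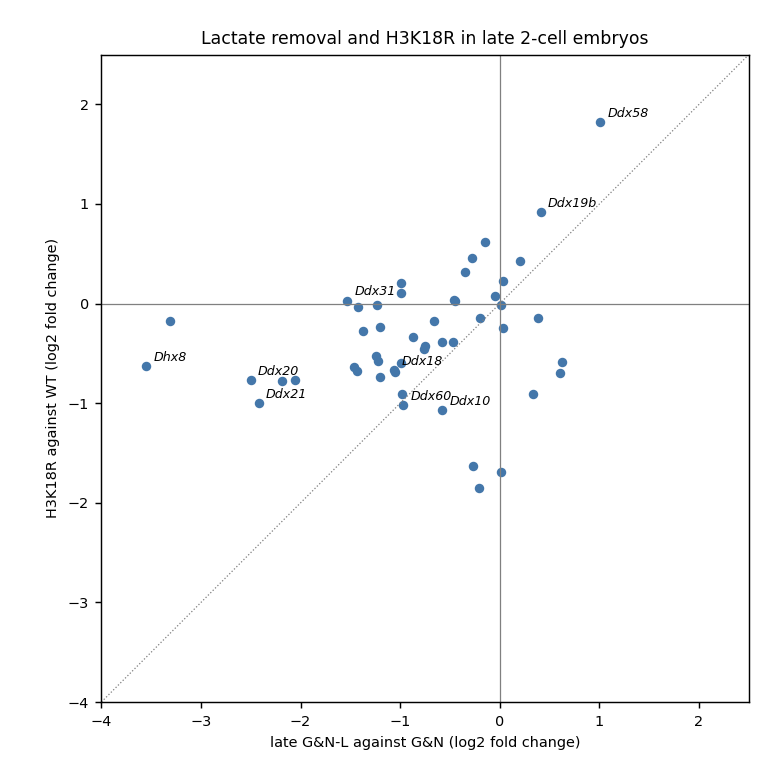
Log2 fold change of 50 members in late G&N-L against G&N (x axis) and in H3K18R against WT (y axis), comparisons without a shared library, with the dotted line marking equal change. Most points lie in the lower left, which holds 30 of the 50, and Ddx58 lies at the upper right with 1.01 and 1.82.

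In the ribosome assembly group 14 of 16 members lay below WT, with a median of -0.68, and 8 of 9 splicing members did, with a median of -0.43. Late lactate removal and H3K18R share no library. Their signs were the same in 34 of 50 members (68%, against 59.2% over 16248 genes), with 30 below 0 in both. Across members Pearson's r was 0.29 and Spearman's rho 0.31, and over all genes r was 0.07. Early lactate removal and H3K18R, also without a shared library, had the same sign in 34 of 49 members (69.4%, against 49.9% of all genes). There r was -0.23 and rho 0.10 across members. Most members lay below the control in each comparison, which by itself raises the share of same signs. Of the 13 members that were lower without lactate at an unadjusted p under 0.05, 12 lay below WT in H3K18R and 11 lay below G&N in early G&N-L. Of all members tested, 37 of 50 lay below WT and 34 of 51 below early G&N. Over all genes, 8605 of 17704 and 8755 of 17343 did. The share among all genes chosen by the same rule was not computed. Ddx31 was the exception in H3K18R, at 22.8 and 13.8 CPM against 13.7 and 22.4 CPM in WT. Ddx58 was above its control in late G&N-L and in H3K18R.

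The other role groups were small. In late G&N-L against G&N the medians were -0.57 over the 2 mitochondrial members (Ddx28 and Dhx30), -0.76 over the 3 germ-line members, 0.20 over the 3 export members and 0.17 over the 4 members in no group (Ddx59, Dhx32, Dhx40 and Dhx57). Ddx3x was at 595 and 339 CPM in late G&N and at 334 and 331 CPM in late G&N-L, and its G&N libraries differed more than the groups did. Ddx6, a decay and storage factor of maternal mRNA, was at 25.1 and 33.3 CPM in late G&N and at 22.9 and 14.8 CPM in late G&N-L. Ddx25, a germ-line helicase, did not exceed 15.5 CPM in any library, nor Ddx11, a DNA helicase of sister chromatid cohesion, 11 CPM. Both libraries of late WT and late H3K18R held at most 3.78 CPM of Ddx25. Dhx34, Dhx35, Ddx23, Dhx58 and Ddx54 were at no more than 8.26 CPM in all libraries, so their fold changes, such as 4.84 for Ddx23 in early embryos, rest on few counts. Exons of other genes on the opposite strand cover 29.9% of the exon bases of Ddx49, 28.5% of Ddx55, 26.2% of Ddx28, 13.3% of Ddx54 and 13.1% of Ddx42, and these levels are uncertain to that extent.

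The 23 other RNA helicase genes of a list, such as Eif4a1 and Dicer1, were set beside the members. In late G&N-L against G&N, 13 of the 21 tested lay below, with a median of -0.28, and 3 were lower at an unadjusted p under 0.05. None of these or of the 36 cofactor genes tested, such as the SMN complex genes and the exon junction complex genes, passed the adjusted threshold there. The cofactors had a median of -0.39, with 26 of 36 below G&N, and 6 were lower and 0 higher at an unadjusted p under 0.05. Over all genes the median was -0.02, and 7.65% were lower and 4.32% higher at that p. For H3K18R against WT the medians were -0.27 over 22 helicase and -0.20 over 37 cofactor genes. With Lac-CoA against G&N-L they were -0.01 and 0.08. Over all genes the medians were 0.03 for H3K18R against WT and -0.01 for Lac-CoA against G&N-L.

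Between the stages, several partners of the helicases changed at an adjusted p under 0.05. Gemin2, a partner of Ddx20 in the SMN complex, rose from 1.53 and 0.455 CPM to 19.6 and 19.5 CPM with lactate (edgeR adjusted p = 0.0255), and stood at 6.55 and 3.13 CPM in late G&N-L. Gemin5, of the same complex, was at 0.0589 and 0 CPM in early and at 8.15 and 19.4 CPM in late G&N (edgeR adjusted p = 0.0196). Smn1, the core of that complex, fell from 472 and 530 CPM to 77.2 and 101 CPM, which is a log2 change of -2.57 (edgeR adjusted p = 0.0104). Smn1 was also lower between the stages without lactate, at -2.43 (edgeR adjusted p = 0.00629). Gpkow, a splicing factor, was 3.77 higher (edgeR adjusted p = 0.0264) and Utp14a, a ribosome assembly factor, 2.01 higher (adjusted p = 0.0254). Pinx1 (-2.82), Magohb (-3.17), Eif4a1 (-1.63) and Dicer1 (-1.16) were lower with lactate and, at -3.47, -2.45, -1.60 and -0.87, also without it. Other calls with lactate included Ifih1, Rbm8a and Rbm5, which were higher, and Magoh and Thoc2, which were lower. Without lactate they were D1Pas1, Rbm8a, Rbm5 and Eif4g2, which were higher, and Magoh, Gpatch1, Eif4enif1, Eif4a2 and Thoc1, which were lower. In all, 11 of 37 cofactor genes and 4 of 21 other helicase genes were called with lactate, and 10 of 36 and 4 of 19 without. Over all genes, 8.18% were called higher and 5.47% lower with lactate, and 5.97% and 5.87% without.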

How the data were processed

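RNA was sequenced from 14 libraries of 2-cell embryos. Per the labels and the study's methods, the authors used FastQC and Trim Galore on the reads, HISAT2 for alignment (mm39), featureCounts for gene counts and DESeq2 for group comparisons. Versions, strandedness and the treatment of multiply mapped reads are not given in the sources used here. The deposited values are raw counts per gene, without normalization. The labels' protocol states 3 replicates, and 2 libraries per group were analysed. Libraries of a group differed by more than counting noise (chi-square per degree of freedom 47.8 to 195) and none was counted as a duplicate.

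The 4 libraries of each comparison, and the 8 of the interaction, were fitted separately by edgeR's quasi-likelihood test (edgeR 4.0.16, limma 3.58.1, R 4.3.3), two-sided, with the default filter on low counts, TMM and Benjamini-Hochberg adjustment over all genes tested, at an adjusted p under 0.05. The script was tested on simulated counts. Levels are CPM on TMM-normalized library sizes over all 14 libraries, and per kilobase of GENCODE exons where genes are compared. Tables were handled in Python 3.11.15 with pandas 2.3.3 and drawn with matplotlib 3.10.9. Alternatives were DESeq2 1.42.0, its size factors in edgeR, library totals, no filter, a minimum of 10 counts per library, a joint fit of all 14 libraries, a block for the replicate number and each library left out. With 2 against 2 libraries, an exact two-sided permutation p is at least 0.333. Given library by library were the 8 members with the smallest p per comparison, members past the adjusted threshold between stages and paralog pairs. Others were named after their values were seen. Role groups and lists were written by hand from symbols, and members and lists were chosen with earlier results of these data known. Ddx58 is named Rigi in the annotation. A result for a gene of the other helicase list is not reported here.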

Additional observations from a re-analysis of the deposited data

How the results depend on the processing

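The medians in early G&N-L and between the stages without lactate changed sign when single libraries were left out, and no named gene past the threshold reversed. For late G&N-L against G&N, DESeq2 called 9 members, edgeR without the filter 4, with at least 10 counts in every library 3 and with all 14 libraries 2, against 0. Over all genes DESeq2 called 3.19% lower and 1.61% higher there. The fit of all 14 libraries called 10 lower and 1 higher of 25041 genes. For Lac-CoA against G&N-L DESeq2 called 7 members, against G&N 1, and for the interaction 3, where edgeR without the filter called 1. The median of Lac-CoA against G&N, -0.13, was -0.19 with at least 10 counts and -0.26 with all 14 libraries. Between the stages with lactate, library totals gave a median of 0.87 in place of 0.48. Without lactate the 5 calls became 16 with DESeq2, 8 with library totals, 10 with at least 10 counts and 9 with all 14 libraries, and the median 0.03 became 0.41 with library totals. The share of all genes called between the stages is not given for any alternative fit. It is also not given for the fits without the filter, with at least 10 counts or with single libraries left out. Such counts show only how the calls depend on the fit. When single libraries were left out, the median of all genes moved too, from -0.17 to 0.15 in late G&N-L. With each library left out in turn, the median of the members ranged from -1.03 to -0.43 in late G&N-L and from -0.24 to 0.08 in early G&N-L. It ranged from -0.72 to -0.31 in H3K18R, from 0.25 to 0.50 in Lac-CoA against G&N-L and from -0.29 to -0.15 in Lac-CoA against G&N. Between the stages it ranged from 0.26 to 0.96 with lactate (1 to 9 calls) and from -0.01 to 0.46 without (1 to 4 calls). No pairing by replicate number was seen: deviations of same-numbered libraries correlated at -0.0913 to 0.00489, and no label ties the numbers to a shared day or litter. With 2 libraries per group this cannot exclude a pairing. With the replicate block, 7 members in place of 12 were called between the stages with lactate and 4 in place of 5 without, and no other number of calls changed. Of the other values of single genes, 683 kept their side of the threshold, 58 lost it and 35 gained it. The cause of these shifts was not tested. Depth limits members with few counts most, such as Ddx23, Dhx34, Dhx35 and Dhx58.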
